A study of Mus musculus with 100 samples.

Results

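The comparison described here sets the uninjured knees of C57BL/6 mice against the uninjured knees of MRL/MpJ mice 1 day after the opposite knee had been injured. It holds every library whose labels give the strain C57BL/6 or MRL/MpJ, no injury and collection at 1-day, which makes 5 and 5 libraries, or 10 of the 100 libraries of the study, and all 17310 genes of the count table. Messenger RNA of whole knee joints was sequenced in C57BL/6, MRL/MpJ and STR/ort mice before injury (0-day) and, from both knees, at the later times 1-day, 1-week and also 2-weeks. Post-traumatic osteoarthritis (PTOA) is the joint degeneration that follows an injury such as a tear of the anterior cruciate ligament (ACL). The labels call C57BL/6 moderately susceptible and MRL/MpJ not susceptible to it.

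All mice were labelled as 10 weeks old, and the 10 libraries carry experimental batch 1. In both strains the right knee had received a single compressive load that ruptured the ACL under isoflurane, and the animals were given buprenorphine afterwards. The contralateral joint was not loaded, but the animal had gone through anaesthesia, analgesia and injury, and no sham-treated mice are among the groups. No transgene or other treatment is labelled, and the labels do not state the sex. The bones were trimmed close to the joint and some soft tissue was left on, so each library holds RNA of cartilage, bone, marrow, ligament, synovium and some muscle together. In such tissue fewer cells of a type and less RNA per cell cannot be told apart. The labels do not say that the 5 libraries of a group came from 5 animals, so the p-values measure the spread between libraries.

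The MRL/MpJ mouse is known for closing ear punch wounds and healing cartilage better than most inbred strains. Articular cartilage owes its stiffness to a mesh of type II collagen filled with aggrecan, and small leucine-rich proteoglycans decorate the collagen fibrils of cartilage, tendon and bone. Interferon-stimulated genes encode antiviral proteins that most cells make at a low level at rest and strongly after interferon binds its receptor. Skeletal muscle switches between glucose and fatty acids as fuel, and fasting, activity and stress hormones move the genes of this switch.

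Total counts lay between 9374169 and 20986027 in the C57BL/6 libraries and between 9790572 and 12741841 in those of MRL/MpJ. Levels are given as counts per 1000000 (CPM) scaled by TMM factors, always in the order of replicates 1 to 5. The first principal component of the 10 libraries held 65.2% of the variance of log2 CPM and parted the strains, and the second held 11.03% and set C57BL/6 replicate 1 against replicate 4. No pair of replicates was identical (0 of 20). Genes of cartilage (Col2a1, Acan), bone (Bglap) and marrow (Rag1, Chil3) were detected in all 10 libraries. The summed level of 14 fast muscle genes was 43806 to 102142 CPM in C57BL/6 and 76886 to 100242 CPM in MRL/MpJ, which puts muscle among the main sources of RNA in these joints. C57BL/6 replicate 1 was the library with the highest sum.

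Of 17310 genes, 2563 (14.8%) differed between the strains with an adjusted p below 0.05 and a fold change above 1.5, which is what called means throughout. In C57BL/6, 1558 genes were higher (9.0%) and 1005 were lower (5.81%). A further step to 2-fold left 716 higher and 491 lower genes, and 205 were higher and 181 lower by over 4-fold. The 5 values of each strain did not overlap for 4067 genes (23.5%), among them 1996 of the called genes. The median log2 fold change of all genes, C57BL/6 over MRL/MpJ, was 0.015, and every log2 fold change below has this direction. Where SE is given, it is the standard error of the log2 fold change. The adjusted p is that of edgeR's quasi-likelihood test after Benjamini-Hochberg adjustment over all genes. When 1 factor of unwanted variation estimated from the 25 housekeeping genes of the study (RUVg) was removed, 2115 genes were called, 67.3% of them higher in C57BL/6 against 60.8% without it, and 77.6% of the variance of this factor lay between the strains. With 2 factors 2032 genes were called. Counts of lists after RUVg are given where they moved by over 1.5 times or in direction, and so are the named genes that lost their call.

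**Figure D1:**
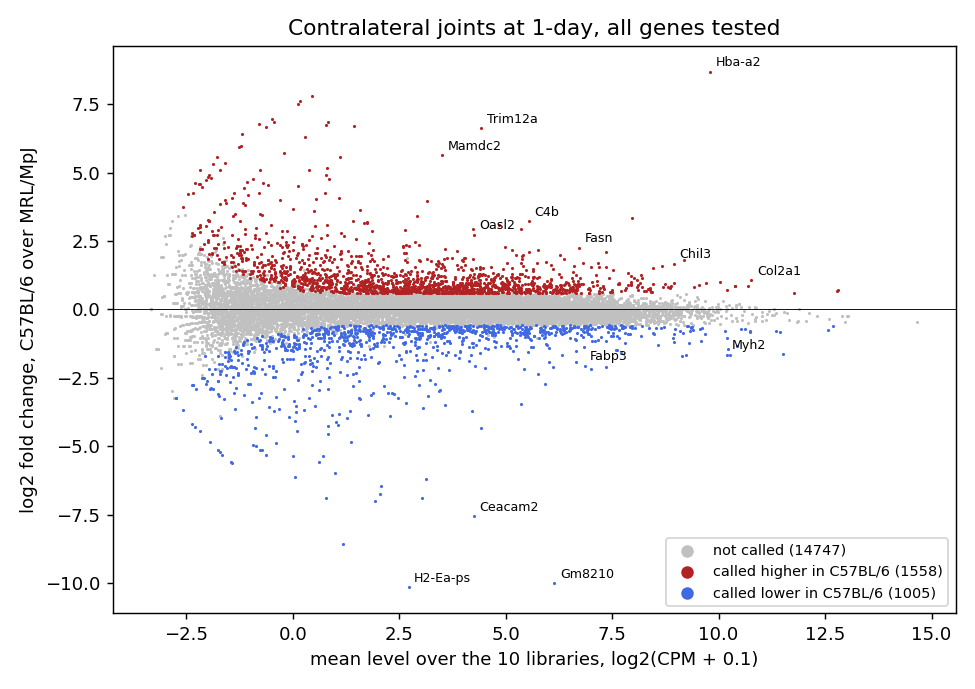
Each point is a gene, with its mean level over the 10 libraries as log2(CPM + 0.1) on the horizontal axis and its log2 fold change, C57BL/6 over MRL/MpJ, on the vertical axis. Red marks the 1558 genes called higher and blue the 1005 called lower in C57BL/6, and the genes furthest from 0 include Hba-a2 at 8.68 and Gm8210 at -10.00.

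Genes of the cartilage matrix were higher in C57BL/6. Of 19 measured members of the list, 17 were called higher and 0 lower, with a median log2 fold change of 1.22. Chad, which encodes the collagen-binding protein chondroadherin, stood at 557, 469, 516, 514 and 539 CPM in C57BL/6 and 204, 155, 116, 229.5 and 222 CPM in MRL/MpJ. Its lowest C57BL/6 library lay above the highest of MRL/MpJ, and the log2 fold change was 1.52 (log2, SE 0.19, adjusted p = 1.36e-07). Sox9, the transcription factor that sets the chondrocyte programme, stood at 23.2, 28.2, 21.7, 19.2 and 23.01 CPM in C57BL/6 and 10.9, 12.4, 8.18, 12.2 and 11.8 CPM in MRL/MpJ. The groups did not overlap (log2 fold change 1.08, SE 0.16, adjusted p = 3.90e-06). Epyc, encoding the proteoglycan epiphycan, differed by 1.53 (log2, SE 0.24, adjusted p = 1.16e-05), and Lect1, encoding the vessel growth inhibitor chondromodulin, by 1.71 (log2, SE 0.27, adjusted p = 1.17e-05).

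The main structural genes of cartilage were looked at after their values were seen. Col2a1, the type II collagen gene, stood at 2516, 2717, 2112, 2490.1 and 1915 CPM in C57BL/6 and 1107, 772, 675, 1579 and 1599 CPM in MRL/MpJ. Every C57BL/6 library was higher than every MRL/MpJ library, but the MRL/MpJ values spread widely, with replicates 2 and 3 lowest (log2 fold change 1.07, SE 0.27, adjusted p = 0.00250). Col2a1 lost its call with 2 RUVg factors removed (log2 fold change 0.80, adjusted p = 0.0690). Acan, the aggrecan gene, stood at 363, 425, 343, 382 and 349 CPM in C57BL/6 and 214, 142, 123, 240.2 and 248 CPM in MRL/MpJ, again without overlap and again with MRL/MpJ replicates 2 and 3 lowest (log2 fold change 0.98, SE 0.22, adjusted p = 8.76e-04). Those libraries were also the lowest of MRL/MpJ for Chad, Epyc and Lect1. Matn1 (0.70, adjusted p = 0.176) and Sox6 (-0.20, adjusted p = 0.118) were the members not called. At 0-day, 17 of the 19 genes were called higher in C57BL/6 with a median of 1.18. At 1-week the median was 0.25 with 1 higher and 1 lower, and at 2-weeks 0.72 with 14 higher, and the change between these times was not tested.

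Small leucine-rich proteoglycans followed the same direction, with 11 of 12 called higher, 0 lower and a median of 1.07. Prelp, which links basement membranes to collagen, stood at 329, 357, 308, 307 and 363 CPM in C57BL/6 and 146, 124, 117, 159 and 138 CPM in MRL/MpJ. The strains did not overlap, and the log2 fold change was 1.32 (log2, SE 0.15, adjusted p = 2.52e-08). Bgn, encoding biglycan, had the highest level of the named members, with 1532, 1363, 1319, 1276 and 1439 CPM in C57BL/6 and 819, 684, 610.2, 727 and 705 CPM in MRL/MpJ (log2 fold change 1.00, SE 0.12, adjusted p = 1.84e-07). Omd, the osteomodulin gene of mineralised matrix, differed by 1.13 (log2, SE 0.14, adjusted p = 1.23e-07). Aspn, encoding asporin, was the member not called (0.44, adjusted p = 0.0692).

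Tendon and ligament genes gave 7 higher and 0 lower of 9, with a median of 0.99. Cilp, encoding a secreted matrix protein of cartilage and tendon, stood at 243, 233, 263, 295 and 292 CPM in C57BL/6 and 111, 101, 74.1, 115 and 105 CPM in MRL/MpJ (log2 fold change 1.42, SE 0.16, adjusted p = 3.82e-08). Fmod, encoding fibromodulin, differed by 1.27 (log2, SE 0.16, adjusted p = 2.08e-07). Kera, encoding keratocan, stood at 73.6, 68.4, 33.7, 28.2 and 45.6 CPM in C57BL/6 and 20.1, 14.5, 13.1, 19.1 and 11.95 CPM in MRL/MpJ. Its C57BL/6 values spread widely, with replicates 1 and 2 highest, and still lay above all of MRL/MpJ (log2 fold change 1.69, SE 0.26, adjusted p = 5.69e-06). Thbs4, a thrombospondin of tendon and muscle, differed by 0.94 (log2, SE 0.17, adjusted p = 3.99e-05). Scx, the transcription factor of tendon progenitors, was not called (0.39, adjusted p = 0.157).

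Bone genes were higher in C57BL/6 as well. Of 15 osteoblast and osteocyte genes 10 were called higher and 1 lower (median 0.70), and of 12 osteoclast genes 8 were higher and 0 lower (median 0.79). Bglap, the osteocalcin gene of osteoblasts, stood at 702, 451, 515, 472 and 497 CPM in C57BL/6 and 330.3, 294, 286, 301 and 314 CPM in MRL/MpJ. C57BL/6 replicate 1 was the highest, and no MRL/MpJ library reached the lowest of C57BL/6 (log2 fold change 0.82, SE 0.12, adjusted p = 4.95e-06). Bglap2, a neighbouring copy whose reads may be shared with Bglap, differed by 0.72 (log2, SE 0.14, adjusted p = 1.81e-04). Col13a1, a collagen anchored in the cell membrane, differed by 0.81 (log2, SE 0.14, adjusted p = 2.97e-05), and Dmp1, a matrix protein gene of osteocytes, by 0.78 (log2, SE 0.15, adjusted p = 1.04e-04). The lower gene was Fgf23, which encodes the phosphate-regulating hormone of osteocytes and was named after its value was seen. It stood at 0.112, 0.552, 0.180, 0.135 and 0.509 CPM in C57BL/6 and 1.07, 0.434, 0.531, 0.791 and 0.491 CPM in MRL/MpJ, low levels that overlapped (log2 fold change -1.16, SE 0.43, adjusted p = 0.0339), and its call was lost without each of C57BL/6 replicates 1, 3 and 4 and MRL/MpJ replicates 1 and 4 (log2 fold change -1.09 to -0.86, adjusted p = 0.0707 to 0.140). It was also lost with 1 RUVg factor removed (log2 fold change -1.34, adjusted p = 0.0730), by DESeq2, in a fit of only the compared groups and in one of all 100 libraries.

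Oscar, a receptor that co-stimulates osteoclast formation, stood at 7.63, 11.5, 10.1, 9.49 and 10.2 CPM in C57BL/6 and 2.26, 1.30, 1.38, 2.29 and 2.70 CPM in MRL/MpJ. All C57BL/6 libraries lay far above MRL/MpJ (log2 fold change 2.31, SE 0.22, adjusted p = 8.59e-10). Atp6v0d2, a subunit of the osteoclast proton pump, differed by 1.11 (log2, SE 0.16, adjusted p = 1.74e-06). Ctsk, encoding the collagen-degrading protease cathepsin K, stood at 568, 582, 540.2, 684 and 629 CPM in C57BL/6 and 319, 249, 323, 367 and 457 CPM in MRL/MpJ (log2 fold change 0.85, SE 0.14, adjusted p = 1.88e-05). Acp5, encoding the osteoclast phosphatase TRAP, differed by 0.74 (log2, SE 0.16, adjusted p = 4.43e-04). Acp5 lost its call with 1 and with 2 RUVg factors removed (log2 fold changes 0.50 and 0.57). With 1 or 2 RUVg factors removed, 5 osteoclast genes and 7 osteoblast genes were called. At 0-day the osteoclast list had 3 higher and 0 lower genes with a median of 0.39, and the osteoblast list 7 and 0 (0.55). At 1-week these lists had 2 and 0 higher genes (medians 0.18 and -0.093), at 2-weeks 2 and 3 (0.27 and 0.23), and 0 lower. The test of the difference between 1-day and 0-day called 0 members of the osteoclast list and 0 of the osteoblast list. The change to the later times was not tested.

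Collagens of fibrous tissue gave 10 higher and 0 lower of 13 (median 0.81), and the enzymes that process and crosslink collagen 8 higher and 0 lower of 16 (median 0.60). Col14a1, a collagen that sits on the surface of fibrils, stood at 82.1, 77.8, 73.5, 66.7 and 63.3 CPM in C57BL/6 and 27.7, 26.1, 26.4, 28.4 and 26.3 CPM in MRL/MpJ. The strains lay far apart with little spread in MRL/MpJ (log2 fold change 1.46, SE 0.18, adjusted p = 1.37e-07). Col5a3 differed by 1.20 (log2, SE 0.13, adjusted p = 1.90e-08), Col6a3 by 0.92 (log2, SE 0.14, adjusted p = 3.72e-06) and Col16a1 by 0.89 (log2, SE 0.13, adjusted p = 4.42e-06). Loxl4 and Loxl2, which encode lysyl oxidases that crosslink collagen, differed by 1.54 (log2, SE 0.15, adjusted p = 2.07e-09) and by 1.16 (log2, SE 0.13, adjusted p = 1.75e-08). Pcolce and Pcolce2, enhancers of the protease that trims procollagen, differed by 1.19 (log2, SE 0.12, adjusted p = 7.72e-09) and by 1.18 (log2, SE 0.13, adjusted p = 3.61e-08).

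Matricellular genes that are known from wounds gave 7 higher and 0 lower of 16 (median 0.55). Thbs2, a thrombospondin that curbs vessel growth, differed by 1.01 (log2, SE 0.11, adjusted p = 2.84e-08). Spp1, encoding osteopontin of bone and macrophages, differed by 0.98 (log2, SE 0.13, adjusted p = 8.56e-07), and Fn1, encoding fibronectin, by 0.84 (log2, SE 0.14, adjusted p = 3.09e-05). Postn, the periostin gene of fibrous tissue, stood at 355, 438, 391, 396 and 457 CPM in C57BL/6 and 265, 259, 262, 258 and 250.2 CPM in MRL/MpJ. The strains did not overlap (log2 fold change 0.69, SE 0.11, adjusted p = 1.86e-05). Of 13 genes of the synovial lining and of lubrication, 4 were higher and 0 lower (median 0.10), a share above the 9.0% of all genes but with a median near that of all genes. Those higher were Pdgfra, a growth factor receptor of fibroblasts (0.70), the secreted protease gene Htra4 (1.27), Pdpn, encoding podoplanin (0.64), and Thy1 (0.63). Without MRL/MpJ replicate 5 or C57BL/6 replicate 1 only 2 of these were called, and Pdpn lost its call without each of C57BL/6 replicate 1 and MRL/MpJ replicates 4 and 5 (log2 fold change 0.55 to 0.57, adjusted p = 0.00424 to 0.00771). Prg4, the lubricin gene, stood at 1935, 1649.9, 2033, 1629 and 2249.8 CPM in C57BL/6 and 1878, 2182, 1292, 1941 and 1793 CPM in MRL/MpJ, and these values overlapped widely (0.10, adjusted p = 0.674).

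**Figure D2:**
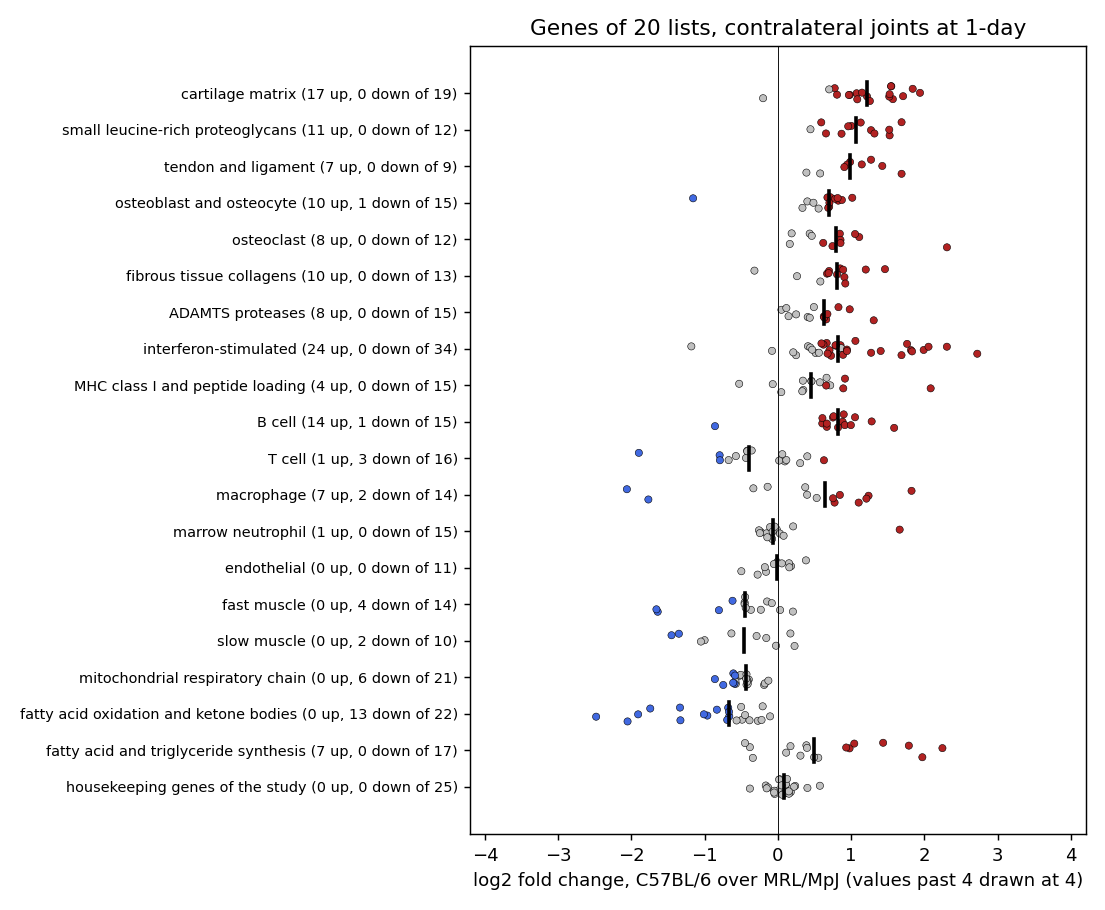
Each point is a gene of the list named at the left, placed by its log2 fold change, C57BL/6 over MRL/MpJ, and the black bar is the median of the list. Red points were called higher and blue points lower in C57BL/6, and the median runs from 1.22 in the cartilage list to -0.67 in the fatty acid oxidation list.

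Matrix-degrading enzymes and their inhibitors were both among the higher genes. Of 14 matrix metalloproteinases 5 were higher and 1 lower (median 0.37), of 15 ADAMTS proteases 8 and 0 (median 0.63), and of 6 inhibitors 4 and 1 (median 0.75). Mmp2, encoding gelatinase A, stood at 292, 293, 228, 254 and 239 CPM in C57BL/6 and 149, 133, 142, 141 and 145 CPM in MRL/MpJ (log2 fold change 0.92, SE 0.11, adjusted p = 7.45e-08). Mmp13, the main collagenase of mouse cartilage and bone, stood at 509.9, 611, 544, 516 and 667 CPM in C57BL/6 and 286, 265, 328, 375 and 424 CPM in MRL/MpJ (log2 fold change 0.80, SE 0.17, adjusted p = 3.18e-04). In both genes the strains did not overlap. Mmp13 lost its call with 1 and with 2 RUVg factors removed (log2 fold changes 0.50 and 0.45). Mmp14, which activates gelatinase A at the cell surface, differed by 0.62 (log2, SE 0.093, adjusted p = 4.34e-06), and Mmp28 by 1.33 (log2, SE 0.25, adjusted p = 1.10e-04). Mmp17, named after its value was seen, was the lower member (log2 fold change -0.82, SE 0.23, adjusted p = 0.00532).

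Adamts2, a procollagen peptidase, differed by 0.63 (log2, SE 0.080, adjusted p = 2.57e-07), a call lost without C57BL/6 replicate 1 (log2 fold change 0.57, adjusted p = 1.43e-06), and Adamts10, Adamts12 and Adamts15 by 0.65, 0.98 and 0.68. The aggrecanase genes Adamts4 and Adamts5, looked at after their values were seen, were not called. Adamts4 stood at 3.14, 3.50, 2.53, 2.43 and 3.31 CPM in C57BL/6 and 2.90, 1.52, 2.12, 2.11 and 2.62 CPM in MRL/MpJ (0.41, adjusted p = 0.228). Adamts5 differed by 0.49 (log2, SE 0.084, adjusted p = 2.74e-05), below the fold threshold. Among the inhibitors, A2m, encoding the broad protease trap alpha-2-macroglobulin, stood at 5.16, 4.87, 5.14, 7.06 and 5.35 CPM in C57BL/6 and 0.537, 0.759, 0.531, 0.616 and 0.737 CPM in MRL/MpJ. C57BL/6 held several times the level of MRL/MpJ in every library (log2 fold change 3.14, SE 0.25, adjusted p = 2.75e-11). Reck, a membrane-bound inhibitor, differed by 0.96 (log2, SE 0.10, adjusted p = 8.50e-09), and Timp2 by 0.77 (log2, SE 0.092, adjusted p = 8.42e-08). Timp4, an inhibitor of muscle and fat, went the other way with 7.86, 4.42, 4.42, 4.50 and 5.60 CPM in C57BL/6 and 14.1, 14.7, 14.1, 14.9 and 12.6 CPM in MRL/MpJ (log2 fold change -1.38, SE 0.15, adjusted p = 8.76e-09).

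Interferon-stimulated genes were higher in C57BL/6 in the uninjured joint. Of 34 members, 24 were called higher, 0 lower, and the median was 0.82. It was 0.94 at 0-day, 1.01 at 1-week and 1.08 at 2-weeks, with 25, 28 and 29 members higher and 0 lower by the same edgeR test. With 1 RUVg factor removed, 11 members were higher and 1 lower at 1-day, and with 2 factors 7 and 1. The promoters of 3 called members are printed because they hold the interferon-stimulated response element, the DNA motif bound by the STAT and IRF factors that act after interferon. The letters searched were GAAA, any 2 bases and GAAA again, on both strands, in the 250 bases before and 50 bases after 1 start site a gene, the first that the promoter table made from RefSeq (GRCm38.p6) lists. This site need not be the outermost start of the gene, and for Ifit3 it lies inside the gene as annotated. Capitals mark the matches, and overlapping matches are joined. Isg15 lies on the minus strand at chr4:156200769-156201068, Ifit3 on the plus strand at chr19:34583279-34583578 and Eif2ak2 on the minus strand at chr17:78882523-78882822.
Isg15: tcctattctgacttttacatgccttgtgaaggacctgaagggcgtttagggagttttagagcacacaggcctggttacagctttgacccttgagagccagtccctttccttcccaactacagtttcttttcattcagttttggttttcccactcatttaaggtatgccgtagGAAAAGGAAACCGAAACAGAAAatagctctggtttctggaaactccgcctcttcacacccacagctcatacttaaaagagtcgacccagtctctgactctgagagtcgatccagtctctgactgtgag
Ifit3: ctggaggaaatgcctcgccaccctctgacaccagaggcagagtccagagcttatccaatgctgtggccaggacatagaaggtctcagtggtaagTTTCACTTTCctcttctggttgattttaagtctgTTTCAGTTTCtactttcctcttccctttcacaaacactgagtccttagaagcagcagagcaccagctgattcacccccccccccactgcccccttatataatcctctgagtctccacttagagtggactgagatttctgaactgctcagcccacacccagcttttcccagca
Eif2ak2: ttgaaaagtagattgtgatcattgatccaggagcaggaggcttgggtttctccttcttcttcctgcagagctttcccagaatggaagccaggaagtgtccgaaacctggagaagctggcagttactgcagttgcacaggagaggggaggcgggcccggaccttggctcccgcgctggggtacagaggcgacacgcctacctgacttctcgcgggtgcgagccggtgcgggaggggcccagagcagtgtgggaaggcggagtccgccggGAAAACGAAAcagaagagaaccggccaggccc

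Isg15 holds 3 overlapping matches that start 78, 72 and 66 bases before the listed start site, Ifit3 holds 2 matches that start 156 and 122 bases before it, and Eif2ak2 holds 1 that starts 18 bases after it. The promoter table held 24 genes of the list. The motif was present in 11 of 17 that were called (64.7%) and in 1 of 7 that were not (14.3%). Over all 27025 promoters of the table its share was 3.49%, and over the promoters of tested genes 3.14%. A match describes letters only.

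Isg15, which encodes a ubiquitin-like antiviral protein, stood at 47.5, 91.1, 54.9, 55.2 and 51.3 CPM in C57BL/6 and 11.9, 15.1, 17.4, 21.4 and 11.6 CPM in MRL/MpJ. C57BL/6 replicate 2 was the highest, and the groups did not overlap (log2 fold change 1.99, SE 0.28, adjusted p = 1.75e-06). Oasl2, encoding a sensor-like protein of the oligoadenylate synthetase family, stood at 30.1, 50.4, 24.99, 32.7 and 25.7 CPM in C57BL/6 and 4.94, 3.69, 4.78, 6.68 and 5.16 CPM in MRL/MpJ. Again replicate 2 was highest in C57BL/6 (log2 fold change 2.72, SE 0.41, adjusted p = 4.81e-06). Ifit3, named after its value was seen, encodes a protein of the complex that binds foreign RNA ends and stood at 11.7, 14.5, 8.66, 9.76 and 9.17 CPM in C57BL/6 and 1.93, 2.28, 2.12, 2.73 and 1.96 CPM in MRL/MpJ (log2 fold change 2.31, SE 0.40, adjusted p = 3.34e-05). Eif2ak2, the double-stranded RNA-activated kinase PKR, had a smaller difference, with 48.2, 61.2, 59.8, 58.3 and 54.004 CPM in C57BL/6 and 36.4, 37.3, 38.1, 43.2 and 36.3 CPM in MRL/MpJ (log2 fold change 0.59, SE 0.10, adjusted p = 1.74e-05). Its fold lay just past the threshold, and the call was lost without each of C57BL/6 replicates 2, 3 and 4 and MRL/MpJ replicate 5 (log2 fold change 0.56 to 0.58, adjusted p = 7.23e-05 to 1.29e-04), under the RLE and housekeeping scalings, by DESeq2, in a fit of all 100 libraries and after RUVg (log2 fold changes 0.44 and 0.40 with 1 and 2 factors). Ifi35 differed by 0.85 (log2, SE 0.13, adjusted p = 3.91e-06). Irf7, the transcription factor that amplifies the interferon response, also named after its value was seen, differed by 1.27 (log2, SE 0.30, adjusted p = 0.00149). Irf7 lost its call with 1 and with 2 RUVg factors removed (log2 fold changes 0.75 and 0.64).

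Members outside the call included the membrane protein gene Ifitm1 (-0.081, adjusted p = 0.764) and Ifi44. Ifi44 stood at 5.05, 8.83, 4.33, 5.80 and 3.65 CPM in C57BL/6 and 11.9, 9.65, 13.5, 21.02 and 8.43 CPM in MRL/MpJ, a difference in the other direction that did not pass the test (-1.18, adjusted p = 0.107). With 1 and with 2 RUVg factors removed, Ifi44 was called lower in C57BL/6. Of 17 guanylate-binding and immunity-related GTPases, which attack the vacuoles of intracellular microbes, 2 were called higher and 1 lower (median 0.48). Over all genes 14.8% were called. Gbp7 stood at 55.1, 59.1, 56.03, 61.8 and 50.9 CPM in C57BL/6 and 27.5, 23.4, 24.2, 21.6 and 22.3 CPM in MRL/MpJ (log2 fold change 1.29, SE 0.37, adjusted p = 0.00755). Gbp10 (log2 fold change -3.22, SE 0.69, adjusted p = 4.52e-04) and Gbp11 (log2 fold change 2.74, SE 0.87, adjusted p = 0.0140) are close copies at low levels whose reads may be split, so their opposite directions are uncertain, and Gbp11 lost its call without C57BL/6 replicate 4 (log2 fold change 2.12, adjusted p = 0.0967). When 1 or 2 factors of unwanted variation were removed (RUVg), 0 of these GTPases were higher and 1 or 2 lower, while a fit of only the compared groups called 8 higher and 1 lower and a fit of all 100 libraries 4 and 1.

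Several clusters of related immune genes differed between the strains. Of 11 genes of the Trim5 cluster, whose proteins restrict retroviruses, 6 were higher and 1 lower (median 0.66). Trim12a stood at 38.5, 42.3, 43.7, 43.9 and 42.97 CPM in C57BL/6 and 0.645, 0.325, 0.425, 0.352 and 0.409 CPM in MRL/MpJ (log2 fold change 6.63, SE 0.22, adjusted p = 1.33e-20). Trim5 had no count (0) in MRL/MpJ and 3.14, 3.22, 2.62, 2.07 and 1.61 CPM in C57BL/6, at least 41.6-fold higher against a floor of 3 counts over the group. Trim12a lies at chr7:104299893-104315558 and Trim5 next to it at chr7:104263386-104288254 in GRCm38.p6. Trim30d differed by 3.97 (log2, SE 0.21, adjusted p = 9.97e-16) and Trim34a by 1.84 (log2, SE 0.18, adjusted p = 1.83e-09), while Trim34b had 2 counts in C57BL/6 and was lower there by a ratio of 56.6 (95% interval 15.2 to 475). These genes are near-identical copies, and counts of single members are uncertain.

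In the Ifi200 cluster of DNA-binding proteins, 3 of 7 were higher and 1 lower (median 0.55). Ifi202b, near absent in C57BL/6, stood at 0.112, 0.0920, 0, 0.225 and 0.0849 CPM in C57BL/6 and 13.3, 17.3, 16.3, 19.6 and 14.2 CPM in MRL/MpJ (log2 fold change -6.88, SE 0.39, adjusted p = 7.80e-15). Pyhin1 stood at 46.9, 66.7, 54.04, 65.1 and 52.5 CPM in C57BL/6 and 12.3, 11.6, 13.2, 17.1 and 11.8 CPM in MRL/MpJ (log2 fold change 2.15, SE 0.15, adjusted p = 1.28e-12). Ifi204 differed by 1.46 (log2, SE 0.17, adjusted p = 5.22e-08) and Ifi203 by 0.62 (log2, SE 0.15, adjusted p = 0.00189), a call lost without C57BL/6 replicate 2 (log2 fold change 0.58, adjusted p = 0.00668) and after RUVg (log2 fold changes 0.36 and 0.29 with 1 and 2 factors). This family too shares sequence among its members.

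Of 15 genes of major histocompatibility complex (MHC) class I and peptide loading, 4 were called higher and 0 lower (median 0.46). H2-D1, which encodes a classical class I chain, stood at 246, 265, 240.4, 334 and 225 CPM in C57BL/6 and 60.5, 57.1, 64.9, 64.9 and 69.3 CPM in MRL/MpJ (log2 fold change 2.09, SE 0.14, adjusted p = 9.45e-13). H2-K1 differed by 0.89 (log2, SE 0.17, adjusted p = 1.46e-04), H2-M3 by 0.92 (log2, SE 0.17, adjusted p = 8.41e-05) and the peptide loading factor Tapbp by 0.66 (log2, SE 0.10, adjusted p = 1.04e-05). Tapbp lost its call after RUVg (log2 fold changes 0.52 and 0.47 with 1 and 2 factors) and H2-K1 with 2 factors (log2 fold change 0.56, adjusted p = 0.0263), and the list then had 3 higher and 1 lower genes with 1 factor and 2 and 2 with 2 factors. Of 10 class II genes, 3 were higher and 1 lower (median 0.48, the same with the gene of 0 counts at its bound). H2-Ab1, which encodes a class II beta chain, stood at 90.3, 117, 102, 90.7 and 97.99 CPM in C57BL/6 and 39.98, 30.8, 28.9, 36.5 and 30.5 CPM in MRL/MpJ (log2 fold change 1.61, SE 0.17, adjusted p = 5.63e-09). H2-Eb1 differed by 1.39 (log2, SE 0.18, adjusted p = 2.94e-07) and H2-DMa by 1.02 (log2, SE 0.21, adjusted p = 2.63e-04). H2-Ea-ps, at chr17:34341952-34344645, had 0 counts in all C57BL/6 libraries and 14.7, 11.3, 13.2, 13.2 and 12.7 CPM in MRL/MpJ, at least 281-fold lower in C57BL/6 against the same floor. Genes of this complex are close copies of each other, and counts of single members are uncertain. Reads of both strains had been aligned to the same mouse reference genome (mm10). How far sequence differences between the strains moved these counts was not tested.

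Markers of immune cells moved in different directions. Of 15 B cell genes, 14 were higher in C57BL/6 and 1 lower (median 0.82). Rag1, the recombinase of developing lymphocytes, stood at 53.7, 72.5, 64.1, 69.8 and 54.8 CPM in C57BL/6 and 18.8, 19.9, 22.3, 23.9 and 22.4 CPM in MRL/MpJ. The lowest C57BL/6 value was far above the highest of MRL/MpJ (log2 fold change 1.59, SE 0.15, adjusted p = 1.58e-09). Pax5, the factor that commits cells to the B lineage, differed by 1.28 (log2, SE 0.13, adjusted p = 2.84e-09), Ebf1, which acts before it, by 0.67 (log2, SE 0.062, adjusted p = 7.28e-10), and the adaptor gene Blnk by 0.90 (log2, SE 0.10, adjusted p = 1.39e-08). Jchain, which joins secreted antibodies of plasma cells, was the lower member and was named after its value was seen. It stood at 14.8, 24.4, 19.8, 65.7 and 21.8 CPM in C57BL/6 and 72.97, 55.5, 53.6, 42.03 and 58.2 CPM in MRL/MpJ, with C57BL/6 replicate 4 at the level of MRL/MpJ and the other libraries below (log2 fold change -0.86, SE 0.28, adjusted p = 0.0152). Its call was lost without each of C57BL/6 replicate 1 and MRL/MpJ replicate 1 (log2 fold change -0.74 to -0.69, adjusted p = 0.0519 to 0.0520).

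Of 16 T cell genes, 1 was higher and 3 were lower (median -0.39). With 1 or 2 RUVg factors removed, 6 were lower. Cd3d, which encodes a chain of the T cell receptor complex, stood at 7.86, 4.32, 8.93, 7.06 and 7.98 CPM in C57BL/6 and 29.4, 25.1, 28.4, 28.7 and 26.4 CPM in MRL/MpJ. MRL/MpJ was higher in every library (log2 fold change -1.90, SE 0.15, adjusted p = 1.35e-11). Cd4 differed by -0.80 (log2, SE 0.14, adjusted p = 3.36e-05) and the cytokine receptor kinase Jak3 by -0.79 (log2, SE 0.11, adjusted p = 8.36e-07). The receptor chain Cd3e (-0.67, adjusted p = 0.0560) and Cd8a (-0.44, adjusted p = 0.145), looked at after their values were seen, were not called. The higher member was Thy1, which fibroblasts also make, with 27.7, 23.9, 16.2, 18.4 and 20.5 CPM in C57BL/6 and 17.8, 11.5, 14.7, 14.3 and 12.03 CPM in MRL/MpJ (log2 fold change 0.63, SE 0.18, adjusted p = 0.00660), and its call was lost without each of C57BL/6 replicates 1 and 2 and MRL/MpJ replicates 2 and 5 (log2 fold change 0.53 to 0.58, adjusted p = 0.0204 to 0.0243).

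Of 14 macrophage genes, 7 were higher and 2 lower (median 0.64). Csf1r, the receptor for the growth factor of macrophages, stood at 187, 192, 189, 232 and 197 CPM in C57BL/6 and 119, 93.4, 108, 119 and 130.2 CPM in MRL/MpJ (log2 fold change 0.85, SE 0.081, adjusted p = 1.17e-09). Folr2, a folate receptor of resident macrophages, stood at 24.9, 16.3, 13.6, 14.6 and 20.7 CPM in C57BL/6 and 5.59, 4.88, 5.84, 4.66 and 4.91 CPM in MRL/MpJ (log2 fold change 1.82, SE 0.18, adjusted p = 2.07e-09). Cx3cr1, the receptor for fractalkine, differed by 1.21 (log2, SE 0.12, adjusted p = 4.87e-09). Timd4, which binds phosphatidylserine on dying cells, went the other way with 7.19, 8.83, 6.50, 6.25 and 7.90 CPM in C57BL/6 and 34.1, 22.7, 33.8, 34.8 and 30.5 CPM in MRL/MpJ (log2 fold change -2.06, SE 0.14, adjusted p = 3.05e-13), and none of these 4 genes overlapped between the strains. Marco, a scavenger receptor named after its value was seen, was also lower in C57BL/6 (log2 fold change -1.77, SE 0.37, adjusted p = 4.94e-04).

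Of 15 marrow neutrophil genes 1 was called (median -0.073), with a summed level of 16405 to 20505 CPM in C57BL/6 and 18849 to 19705 CPM in MRL/MpJ. The gene was Chil3, a chitinase-like protein gene of myeloid cells, at 682, 623, 724, 917 and 785 CPM in C57BL/6 and 239, 229.7, 252, 242 and 246 CPM in MRL/MpJ (log2 fold change 1.66, SE 0.089, adjusted p = 1.81e-15). Of 10 mast cell genes 2 were higher and 1 lower. The protease genes Cpa3 and Mcpt4 differed by 0.67 (log2, SE 0.12, adjusted p = 8.49e-05) and by 1.26 (log2, SE 0.24, adjusted p = 9.29e-05). Cpa3 lost its call with 1 RUVg factor removed (log2 fold change 0.57, adjusted p = 0.00513). The tryptase gene Tpsab1 had 2 counts in C57BL/6 and 2.36, 1.41, 0.531, 0.879 and 1.23 CPM in MRL/MpJ, lower in C57BL/6 by a ratio of 40.9 (95% interval 10.9 to 345).

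Complement, the cascade that tags and lyses microbes, gave 7 higher and 2 lower of 18 (median 0.39). C4b stood at 104, 77.4, 71.2, 86.99 and 81.2 CPM in C57BL/6 and 9.99, 8.89, 7.54, 9.41 and 9.99 CPM in MRL/MpJ (log2 fold change 3.23, SE 0.16, adjusted p = 3.39e-16). C4a, its close copy, was the lower member next to Cd59a, with -1.13 (adjusted p = 0.00698), and reads may be shared between the copies. The call of C4a was lost after RUVg (log2 fold changes -0.999 and -1.06 with 1 and 2 factors). Cd59a, which blocks the lytic pore on cells, stood at 70.6, 70.5, 70.6, 69.1 and 89.4 CPM in C57BL/6 and 158, 155, 158, 140.0 and 146 CPM in MRL/MpJ (log2 fold change -0.998, SE 0.068, adjusted p = 5.67e-13). Cfd, a complement protease made by fat cells, differed by 1.68 (log2, SE 0.19, adjusted p = 2.77e-08).

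Of 30 inflammatory cytokines and chemokines 6 were higher and 3 lower (median 0.26). Csf1, the macrophage growth factor whose receptor was also higher, stood at 67.5, 65.03, 57.5, 57.8 and 73.2 CPM in C57BL/6 and 46.5, 35.4, 38.3, 43.5 and 42.98 CPM in MRL/MpJ (log2 fold change 0.67, SE 0.089, adjusted p = 6.35e-07). Ccl6, a chemokine of myeloid cells, differed by 0.59 (log2, SE 0.084, adjusted p = 1.50e-06), and Ccl11, which draws eosinophils, by 0.83 (log2, SE 0.16, adjusted p = 1.22e-04). Il1a was lower in C57BL/6, with 3.03, 3.50, 3.79, 3.69 and 5.09 CPM in C57BL/6 and 5.91, 6.83, 5.84, 7.56 and 6.55 CPM in MRL/MpJ (log2 fold change -0.74, SE 0.17, adjusted p = 0.00125). The call of Ccl6 was lost without each of C57BL/6 replicates 2, 4 and 5 and MRL/MpJ replicates 2 and 5 (log2 fold change 0.56 to 0.58, adjusted p = 8.12e-06 to 1.33e-05), under the RLE and housekeeping scalings, by DESeq2, in a fit of all 100 libraries and after RUVg (log2 fold changes 0.49 and 0.52 with 1 and 2 factors), and that of Csf1 with 2 factors (log2 fold change 0.58, adjusted p = 1.57e-04). Il6, the cytokine of fever and injury, was looked at after its value was seen and stood at 0.337, 0.276, 0.271, 0.225 and 0.340 CPM in C57BL/6 and 0.645, 0, 0.425, 0.176 and 0.0819 CPM in MRL/MpJ, near the limit of detection (0.17, adjusted p = 0.873).

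**Figure D3:**
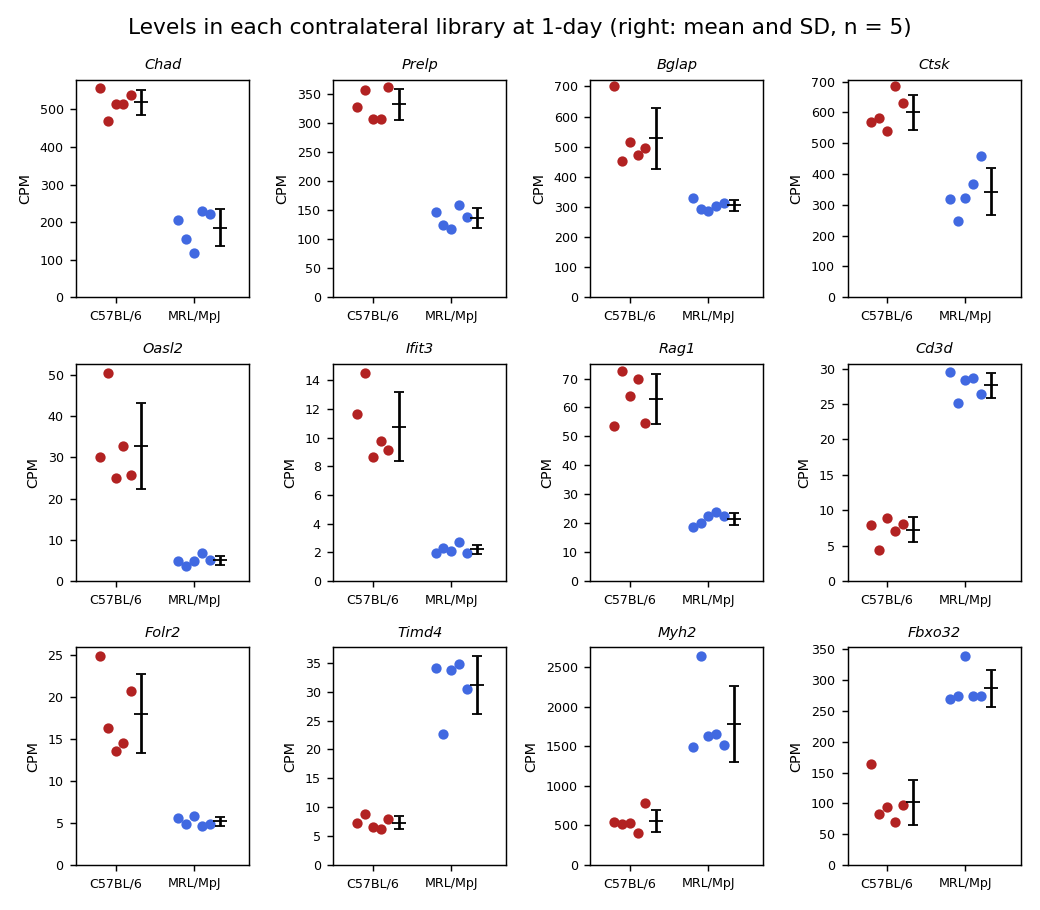
Each dot is a contralateral library at 1-day, red for C57BL/6 and blue for MRL/MpJ, with the level in CPM on a vertical axis that starts at 0, and the bar to the right is the mean and SD of 5 libraries. In all 12 genes the strains do not overlap, with Cd3d, Timd4, Myh2 and Fbxo32 higher in MRL/MpJ and the other 8 higher in C57BL/6.

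Muscle genes were lower in C57BL/6 or did not pass the test. Of 14 fast muscle genes 0 were higher and 4 lower (median -0.44), and of 10 slow muscle genes 0 and 2 (median -0.46). At 0-day 0 fast muscle genes were higher and 13 lower (median -0.82), and 0 and 5 slow muscle genes (median -0.92). The fast muscle sum was then 41152 to 66504 CPM in C57BL/6 and 90558 to 110348 CPM in MRL/MpJ. The test of the difference between 1-day and 0-day called 0 members of either list. Myh1, the myosin of fast IIx fibres, stood at 1744, 1324, 1959.8, 956 and 980.4 CPM in C57BL/6 and 4221, 6091, 4276, 3663 and 3999 CPM in MRL/MpJ (log2 fold change -1.64, SE 0.27, adjusted p = 1.52e-05). Myh2, the myosin of fast oxidative IIa fibres, stood at 539, 511, 527, 402 and 777 CPM in C57BL/6 and 1484, 2637, 1635, 1650.3 and 1510.4 CPM in MRL/MpJ (log2 fold change -1.66, SE 0.39, adjusted p = 0.00113). Neither gene overlapped between strains. Myh4, the myosin of the fastest fibres, was looked at after its value was seen and stood at 37359.9, 17215, 18922, 14764 and 19638 CPM in C57BL/6 and 31341, 30782, 35014, 26190.2 and 28208 CPM in MRL/MpJ, with C57BL/6 replicate 1 the highest of the 10 libraries (-0.46, adjusted p = 0.136). Ryr1, the calcium release channel, differed by -0.81 (log2, SE 0.22, adjusted p = 0.00428) and the creatine kinase gene Ckm by -0.62 (log2, SE 0.24, adjusted p = 0.0407). The call of Ckm was lost without each of C57BL/6 replicates 2, 3, 4 and 5 and MRL/MpJ replicates 1, 2 and 3 (log2 fold change -0.63 to -0.51, adjusted p = 0.0585 to 0.117). Without C57BL/6 replicate 1 the fast muscle list had 8 lower genes, and without C57BL/6 replicate 5 the slow muscle list had 4, as it had with the replicate block and in a fit of only the compared groups. With 1 RUVg factor removed, 1 fast muscle gene was lower (Myh1) and 1 higher (Casq1, a calcium-binding protein gene of muscle, named after its value was seen), and with 2 factors 2 were lower (Myh1 and Myh2). The call of Myh2 was lost with 1 factor (log2 fold change -1.003, adjusted p = 0.0768) and those of Ryr1 (log2 fold changes -0.16 and -0.30) and Ckm with both, and the log2 fold change of Ckm was 0.025 with 1 factor (adjusted p = 0.939). Ckm was also not called by DESeq2 or with housekeeping scaling. Of the slow muscle genes 1 was lower with either number of factors.

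Mybpc1, a myosin-binding protein of slow fibres, stood at 683, 809, 723, 358 and 581 CPM in C57BL/6 and 1571, 2600.1, 1783, 1349 and 1541 CPM in MRL/MpJ (log2 fold change -1.45, SE 0.29, adjusted p = 1.73e-04), and Myoz2 differed by -1.35 (log2, SE 0.38, adjusted p = 0.00612). The summed level of the slow muscle list was 668 to 1219 CPM in C57BL/6 and 1875 to 3336 CPM in MRL/MpJ. Of 13 genes of muscle regeneration and denervation 0 were higher and 6 lower (median -0.79). Fbxo32, a ubiquitin ligase of muscle wasting, stood at 165, 82.1, 93.7, 69.4 and 97.5 CPM in C57BL/6 and 270.0, 275, 339.6, 275 and 274 CPM in MRL/MpJ, with C57BL/6 replicate 1 nearest to MRL/MpJ (log2 fold change -1.47, SE 0.25, adjusted p = 3.03e-05). The muscle transcription factors Myod1 and Myog differed by -0.77 (log2, SE 0.23, adjusted p = 0.00925) and by -1.30 (log2, SE 0.41, adjusted p = 0.0141), and the acetylcholine receptor subunit Chrnd by -0.99 (log2, SE 0.31, adjusted p = 0.0125). Without C57BL/6 replicate 4, the library with the lowest muscle sums, 3 genes of this list were called, and Myog and Chrnd were not (log2 fold changes -1.06 and -0.69). With 1 or 2 RUVg factors removed, 2 of these genes were called, and Myod1 (log2 fold changes -0.27 and -0.20) and Myog (-0.90 and -1.12) were not, nor was Myoz2 of the slow muscle list (-0.71 and -0.99).

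Of 21 genes of the mitochondrial respiratory chain, which makes ATP with oxygen, 0 were higher and 6 lower, and all 21 had a negative log2 fold change (median -0.43). Cox7a1, a subunit made in heart and muscle, stood at 61.2, 42.4, 45.02, 31.5 and 53.1 CPM in C57BL/6 and 100.4, 97.8, 84.9, 77.5 and 70.4 CPM in MRL/MpJ (log2 fold change -0.86, SE 0.21, adjusted p = 0.00187). Uqcrc1 and Uqcrfs1 of complex III differed by -0.61 (log2, SE 0.12, adjusted p = 1.39e-04) and by -0.59 (log2, SE 0.12, adjusted p = 2.30e-04), and Sdhb of complex II by -0.59 (log2, SE 0.12, adjusted p = 2.73e-04). The folds of these 3 lay near the threshold, and without each of MRL/MpJ replicates 1 and 2 and C57BL/6 replicates 2 and 4 in turn they fell below it, which left 2 called genes in the list (lowest and highest log2 fold changes -0.58 and -0.55, -0.58 and -0.52 and -0.58 and -0.54). Uqcrfs1 also lost its call without C57BL/6 replicate 3. With 1 or 2 RUVg factors removed, 0 of the 21 genes were called. Muscle is rich in these transcripts, and the part of the muscle sums above in these differences was not tested.

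Genes that burn and genes that make fatty acids were grouped in lists that were drawn up after values of these data had been seen, so their counts describe the members only. Of 22 genes of fatty acid oxidation and ketone bodies 0 were higher and 13 lower against 5.81% of all genes, and all 22 were negative (median -0.67). Of 17 genes of fatty acid and triglyceride synthesis 7 were higher against 9.0% of all genes and 0 lower (median 0.49). With 1 or 2 RUVg factors removed, 7 or 8 oxidation genes were called lower. At 0-day the medians were -0.25 and 0.14, at 1-week 0.10 and -0.26, and at 2-weeks 0.0081 and -0.14. Several oxidation genes are rich in muscle, where the summed level of the slow muscle list at 1-day was 668 to 1219 CPM in C57BL/6 and 1875 to 3336 CPM in MRL/MpJ. At 0-day this sum was 941 to 1515 CPM in C57BL/6 and 1813 to 3169 CPM in MRL/MpJ. The part of muscle in these differences was not tested.

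Pdk4, the kinase that shuts off glucose oxidation when fat is used, stood at 77.01, 32.8, 31.2, 36.6 and 31.5 CPM in C57BL/6 and 212, 209, 142, 136 and 98.1 CPM in MRL/MpJ. C57BL/6 replicate 1 held more than the other C57BL/6 libraries, and no library of C57BL/6 reached MRL/MpJ (log2 fold change -1.91, SE 0.29, adjusted p = 4.53e-06). Plin5, which ties lipid droplets to mitochondria, stood at 2.36, 1.66, 1.89, 1.12 and 2.12 CPM in C57BL/6 and 10.1, 16.4, 8.39, 7.65 and 8.10 CPM in MRL/MpJ (log2 fold change -2.48, SE 0.31, adjusted p = 1.98e-07). Fabp3, the fatty acid carrier of muscle, stood at 51.8, 40.5, 43.2, 26.2 and 60.4 CPM in C57BL/6 and 211, 269.9, 176, 149 and 131 CPM in MRL/MpJ (log2 fold change -2.05, SE 0.33, adjusted p = 1.40e-05). Both genes were lower in all C57BL/6 libraries. Ucp3, an inner membrane carrier of muscle mitochondria, differed by -1.34 (log2, SE 0.25, adjusted p = 1.06e-04). Ppargc1a, the coactivator that drives mitochondrial genes, and the fatty acid dehydrogenase gene Acadm, both named after their values were seen, differed by -1.33 (log2, SE 0.21, adjusted p = 7.45e-06) and by -0.96 (log2, SE 0.16, adjusted p = 1.32e-05).

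Fasn, the fatty acid synthase gene, stood at 191, 242, 95.4, 122 and 223 CPM in C57BL/6 and 33.7, 33.4, 36.2, 38.3 and 46.6 CPM in MRL/MpJ. C57BL/6 replicates 3 and 4 were the lowest of their group and still above all MRL/MpJ libraries (log2 fold change 2.25, SE 0.18, adjusted p = 2.54e-11). Acaca, which encodes the carboxylase that feeds fatty acid synthase, stood at 79.5, 103, 68.4, 71.1 and 108 CPM in C57BL/6 and 46.2, 45.96, 39.3, 42.2 and 49.5 CPM in MRL/MpJ (log2 fold change 0.98, SE 0.10, adjusted p = 7.84e-09). Scd1, the desaturase that makes monounsaturated fatty acids, was named after its value was seen and stood at 1207, 1222, 475, 422 and 1158 CPM in C57BL/6 and 236, 255, 259.8, 252 and 331 CPM in MRL/MpJ. The same replicates 3 and 4 were lowest in C57BL/6 (log2 fold change 1.79, SE 0.22, adjusted p = 1.09e-07). Of 15 markers of white and brown fat 5 were higher and 1 lower (median 0.18), with a summed level of 1357 to 2115 CPM in C57BL/6 and 1358 to 1659.8 CPM in MRL/MpJ. The part of fat cells in the synthesis genes was not tested.

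The strain difference at 1-day was then tested against that at 0-day, where 4 libraries of each strain came from mice before injury. Of 17310 genes 11 (0.0635%) were called in this edgeR test, 4 with a higher and 7 with a lower C57BL/6 to MRL/MpJ ratio at 1-day. The count fell to 2 without MRL/MpJ replicate 3 of 0-day and to 3 without its replicate 4 or without C57BL/6 contralateral replicate 3, and rose to 20 without C57BL/6 contralateral replicate 4. It was 4 without C57BL/6 replicate 4 of 0-day, 5 without MRL/MpJ replicate 2 of 0-day or MRL/MpJ contralateral replicate 1 or 5, 6 without C57BL/6 replicate 2 of 0-day or MRL/MpJ contralateral replicate 2, and 7 without C57BL/6 contralateral replicate 1, 2 or 5. Among them were Pdk4, Plin5 and Fabp3 of the fatty acid oxidation list. Pdk4 had stood at 99.2, 124, 162 and 169.6 CPM in C57BL/6 and 99.8, 77.1, 139.7 and 126 CPM in MRL/MpJ at 0-day, so the strains overlapped there. The difference of log2 fold changes was -2.29, SE 0.39, adjusted p = 0.0171. Plin5 had stood at 4.98, 4.26, 6.21 and 3.44 and 8.49, 5.93, 4.65 and 3.79 CPM (difference -2.20, SE 0.38, adjusted p = 0.0203), and Fabp3 at 62.5, 71.5, 77.4 and 52.4 and 112, 78.6, 109 and 90.7 CPM (difference -1.53, SE 0.30, adjusted p = 0.0408). When each of the 18 libraries was left out in turn, Pdk4 kept its call in 18 of 18, Plin5 in 16 of 18 and Fabp3 in 7 of 18.

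On the positive side stood Nmrk2, a kinase of nicotinamide riboside in muscle. It had 76.6, 48.2, 26.6 and 43.1 CPM in C57BL/6 and 70.6, 61.2, 102 and 87.6 CPM in MRL/MpJ at 0-day and 141, 73.3, 94.9, 77.5 and 80.8 against 39.7, 34.6, 26.8, 20.4 and 22.4 CPM at 1-day (difference 2.41, SE 0.35, adjusted p = 0.00309). Nr1d1, a repressor of the circadian clock, stood at 106, 79.2, 107 and 72.4 and 126, 114, 119 and 96.7 CPM at 0-day and 94.4, 92.4, 97.8, 60.6 and 88.99 and 63.1, 57.8, 54.9, 50.04 and 49.5 CPM at 1-day (difference 0.97, SE 0.18, adjusted p = 0.0256). Acsl3, which activates fatty acids, and Gprc5c, an orphan receptor, differed by 0.74, SE 0.14, adjusted p = 0.0408 and by 0.67, SE 0.13, adjusted p = 0.0408. Among the genes whose ratio was lower at 1-day were also C1qtnf3, a secreted protein gene of cartilage and fat (-2.70, SE 0.50, adjusted p = 0.0267), and Aspn (-1.14, SE 0.23, adjusted p = 0.0408). Fbn2, the fibrillin 2 gene, was also among them and was named after its value was seen (-1.22, SE 0.25, adjusted p = 0.0418). With each library left out in turn, Nmrk2 kept its call in 18 of 18, Nr1d1 in 13 of 18, C1qtnf3 in 12 of 18, Acsl3 in 7 of 18, Gprc5c in 6 of 18, Fbn2 in 6 of 18 and Aspn in 4 of 18. Of 16 clock genes 2 were called higher and 0 lower at 1-day, a share near the 14.8% of all genes called, namely Nr1d1 (log2 fold change 0.69, SE 0.15, adjusted p = 6.64e-04) and Arntl, the activator of the clock (log2 fold change 0.85, SE 0.14, adjusted p = 2.15e-05). Without MRL/MpJ replicate 4 there were 3 higher and 1 lower. The mice of 1-day had gone through anaesthesia, injury and analgesia and those of 0-day had not, and these cannot be told apart.

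**Figure D4:**
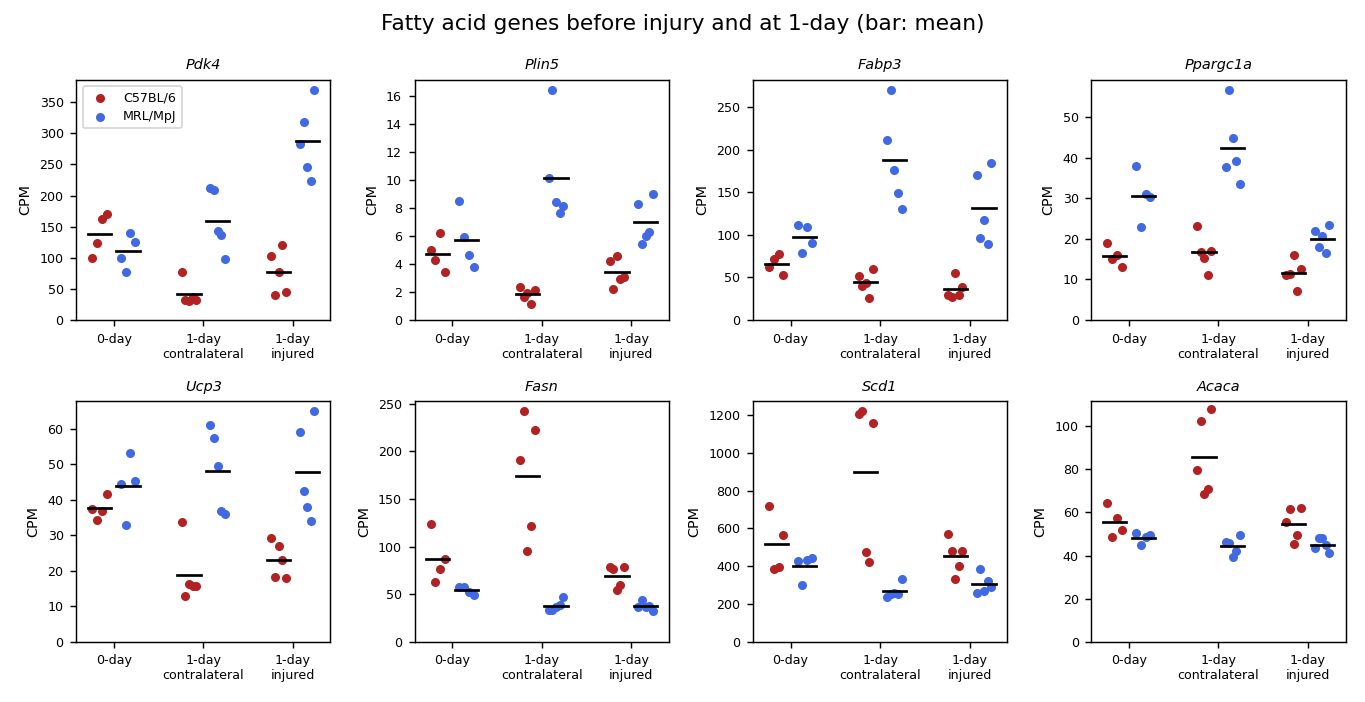
Each dot is a library of C57BL/6 (red) or MRL/MpJ (blue) at 0-day, in the contralateral joint at 1-day or in the injured joint at 1-day, with the level in CPM on the vertical axis and the mean as a bar. Pdk4, Plin5 and Fabp3 overlap or lie close at 0-day and are apart in the contralateral joint, where the C57BL/6 values of Fasn and Scd1 lie above all others of the panel in their highest 3 libraries.

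The strain difference in the contralateral joint was also tested against that in the injured joint of the same time, in a test that uses the contralateral libraries again. Here 55 genes (0.318%) were called, 49 with a higher and 6 with a lower C57BL/6 to MRL/MpJ ratio in the injured joint. The count was 25 without MRL/MpJ injured replicate 3, 26 without C57BL/6 injured replicate 1, 27 without MRL/MpJ contralateral replicate 1, 29 without C57BL/6 contralateral replicate 3 or injured replicate 4, 36 without MRL/MpJ contralateral replicate 3 or C57BL/6 contralateral replicate 4, and 120 without C57BL/6 injured replicate 2. Postn stood at 1565, 1055, 1518, 1844 and 1450.2 CPM in injured C57BL/6 joints and 420.1, 409, 387, 368 and 391 CPM in those of MRL/MpJ. Its log2 fold change was 1.93 there against 0.69 in the contralateral joint (difference 1.23, SE 0.16, adjusted p = 2.46e-04). Angptl1, a secreted angiopoietin-like protein gene, had 3.26 against 1.26 (difference 2.01, SE 0.31, adjusted p = 9.18e-04). Lrrc17, a secreted repeat protein gene of bone cells, had 1.30 against -0.055 (difference 1.36, SE 0.20, adjusted p = 7.43e-04), and Phldb2 had 1.13 against 0.27 (difference 0.85, SE 0.12, adjusted p = 7.43e-04). These 4 genes and Fasn kept their calls with each of the 20 libraries left out in turn.

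Fasn had 78.3, 76.2, 54.6, 59.2 and 78.3 CPM in injured C57BL/6 joints and 36.1, 43.5, 36.9, 38.04 and 32.6 CPM in injured MRL/MpJ joints, a log2 fold change of 0.90 against 2.25 in the contralateral joint (difference -1.34, SE 0.25, adjusted p = 0.00850). Acaca had 0.30 against 0.98 (difference -0.68, SE 0.15, adjusted p = 0.0267). Hal, the enzyme that starts histidine breakdown, was lower in C57BL/6 in both joints, with 2.81, 2.76, 1.53, 2.56 and 2.04 CPM in C57BL/6 and 21.3, 19.5, 19.8, 16.7 and 18.2 CPM in MRL/MpJ in the contralateral joint and 0.931, 1.61, 1.97, 1.72 and 2.17 against 38.5, 46.8, 28.8, 31.1 and 35.3 CPM in the injured joint (difference -1.40, SE 0.29, adjusted p = 0.0242). Adamtsl2, a secreted ADAMTS-like protein gene, and the non-coding gene BE949265 differed by -1.53, SE 0.32, adjusted p = 0.0243 and by -4.37, SE 1.02, adjusted p = 0.0479. With each library left out in turn, Acaca kept its call in 13 of 20, Hal in 17 of 20, Adamtsl2 in 16 of 20 and BE949265 in 3 of 20.

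The named genes with the largest folds were mostly near 0 in one strain. The part of strain differences in sequence, with all reads aligned to mm10, was not tested. Hba-a2, a haemoglobin alpha gene, stood at 1497, 1722, 2182, 1362 and 2094 CPM in C57BL/6 and 4.19, 6.72, 6.48, 3.34 and 1.88 CPM in MRL/MpJ (log2 fold change 8.68, SE 0.40, adjusted p = 3.86e-17). It is an almost identical copy of a neighbouring gene, so counts of the copies are uncertain, and of 12 erythroid genes 1 was higher and 3 were lower (median -0.38). Those lower were Hbb-bs (log2 fold change -1.49, SE 0.29, adjusted p = 1.49e-04), the erythroid nuclear protein gene Hemgn (log2 fold change -0.74, SE 0.13, adjusted p = 5.14e-05) and the erythroid factor Klf1 (log2 fold change -0.67, SE 0.14, adjusted p = 3.92e-04).

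Of the antibody gene segments, Ighv1-9 had 0 counts in MRL/MpJ and 1.01, 1.10, 2.98, 3.69 and 1.44 CPM in C57BL/6, at least 40.5-fold higher. Ighv4-1 and Igkv8-27 had 1 count in MRL/MpJ each, and their ratios were 193 (95% interval 34.3 to 7656) and 167 (95% interval 29.6 to 6620.2). Ighv4-1 at chr12:113948284-113948577 and Ighv1-9 at chr12:114583569-114583862 lie in the heavy chain locus, whose segments differ between strains and share sequence, so these values are uncertain. Skint3, of a skin T cell selecting family, had 2 counts in MRL/MpJ at a ratio of 129 (95% interval 35.3 to 1067), and Rbm44, an RNA-binding protein gene of germ cells, had 1 at a ratio of 128 (95% interval 22.6 to 5083). Mamdc2, a secreted proteoglycan gene, stood at 25.8, 23.3, 18.7, 21.9 and 20.97 CPM in C57BL/6 and 0.752, 0, 0.106, 0.616 and 0.655 CPM in MRL/MpJ (log2 fold change 5.63, SE 0.23, adjusted p = 3.23e-18). Eps8l1, an actin regulator, differed by 5.55 (log2, SE 0.47, adjusted p = 9.00e-11). The smallest adjusted p among higher genes was that of the uncharacterised gene 2610507I01Rik, at 51.8, 44.2, 50.98, 59.1 and 47.98 CPM in C57BL/6 and 6.88, 6.18, 6.37, 5.72 and 5.73 CPM in MRL/MpJ (log2 fold change 3.08, SE 0.095, adjusted p = 1.56e-21).

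In the other direction, the pseudogene Gm8210 stood at 0.225, 0.184, 0.180, 0.0900 and 0 CPM in C57BL/6 and 129, 142, 106, 163 and 166 CPM in MRL/MpJ (log2 fold change -10.00, SE 0.23, adjusted p = 8.23e-25). It shared the smallest adjusted p among lower genes with Ceacam2, and reads of its parent gene may be counted there. Ceacam2, a cell adhesion molecule of the carcinoembryonic antigen family, stood at 0.112, 0.0920, 0.180, 0.135 and 0.425 CPM in C57BL/6 and 37.3, 37.1, 39.2, 37.99 and 38.5 CPM in MRL/MpJ, with MRL/MpJ values very close to each other (log2 fold change -7.56, SE 0.18, adjusted p = 8.23e-25). Ccnb1ip1, a ubiquitin ligase gene of meiosis, had 0 counts in C57BL/6 and 4.73, 4.77, 3.51, 4.66 and 3.93 CPM in MRL/MpJ, at least 93.2-fold lower in C57BL/6. The interferon-inducible gene Ifi44l had 1 count in C57BL/6, lower there at a ratio of 211 (95% interval 37.4 to 8402). 4931408C20Rik (log2 fold change -6.76, SE 0.48, adjusted p = 1.54e-11) and the pseudogene Gm5779 (log2 fold change -6.21, SE 0.21, adjusted p = 1.68e-20) differed likewise, and BC117090, a stefin-like gene with close copies, had 3 counts in C57BL/6 at a ratio of 80.6 (95% interval 27.2 to 394).

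Of 13 genes known to vary between inbred strains, 10 were lower and 1 higher in C57BL/6 (median -1.67). They were listed because such loci differ between strains, so this count describes the members only, beside 14.8% of all genes called. Alad, the second enzyme of haem synthesis, stood at 45.2, 60.8, 67.3, 66.3 and 62.1 CPM in C57BL/6 and 269.8, 259, 245, 267 and 284 CPM in MRL/MpJ (log2 fold change -2.09, SE 0.11, adjusted p = 1.09e-15). Nnt, the mitochondrial transhydrogenase that makes NADPH, stood at 37.3, 33.8, 35.6, 36.7 and 44.2 CPM in C57BL/6 and 123, 137, 115, 116 and 123 CPM in MRL/MpJ (log2 fold change -1.67, SE 0.091, adjusted p = 2.95e-15). Both genes parted the strains in every library. Of 21 antioxidant genes 2 were higher and 4 lower (median -0.21), with the methylglyoxal-clearing enzyme Glo1 at -1.11 (log2, SE 0.065, adjusted p = 2.10e-14), the plasma peroxidase Gpx3 at 1.08 (log2, SE 0.081, adjusted p = 6.56e-12) and mitochondrial Sod2 at -0.65 (log2, SE 0.11, adjusted p = 1.74e-05), a call lost without C57BL/6 replicate 4 (log2 fold change -0.56, adjusted p = 8.20e-05) and after RUVg (log2 fold changes -0.43 and -0.54 with 1 and 2 factors).

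Of 19 Wnt receptors and antagonists 7 were higher and 0 lower (median 0.42), against 9.0% of all genes higher, and those named all encode secreted inhibitors of Wnt signalling. Sfrp2 stood at 43.4, 33.8, 24, 23.3 and 38.3 CPM in C57BL/6 and 11.3, 13.7, 10.2, 12.6 and 9.99 CPM in MRL/MpJ (log2 fold change 1.52, SE 0.22, adjusted p = 2.85e-06). Sfrp4 differed by 0.83 (log2, SE 0.10, adjusted p = 1.34e-07), Wif1 by 0.77 (log2, SE 0.12, adjusted p = 7.88e-06) and Dkk1 by 0.87 (log2, SE 0.18, adjusted p = 2.56e-04). With 2 RUVg factors removed, Wif1 (log2 fold change 0.55, adjusted p = 0.00218) and Dkk1 (log2 fold change 0.57, adjusted p = 0.0306) lost their calls. Of 13 genes of the insulin-like growth factor axis 3 were higher and 0 lower (median 0.28), namely the binding proteins Igfbp2 (log2 fold change 2.45, SE 0.39, adjusted p = 1.11e-05) and Igfbp6 (log2 fold change 1.29, SE 0.22, adjusted p = 2.64e-05) and the protease gene Pappa2 that frees the growth factor (log2 fold change 1.29, SE 0.21, adjusted p = 1.53e-05).

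In fat, the hormone gene Retn stood at 46.8, 30.4, 15.9, 22.7 and 48.9 CPM in C57BL/6 and 3.87, 4.34, 5.10, 4.40 and 4.26 CPM in MRL/MpJ, with C57BL/6 replicate 3 lowest of its group (log2 fold change 2.93, SE 0.26, adjusted p = 2.19e-10). Plin1, which coats lipid droplets, differed by 1.19 (log2, SE 0.14, adjusted p = 5.11e-08) and the hormone gene Adipoq by 0.59 (log2, SE 0.12, adjusted p = 2.48e-04), a call lost without each of C57BL/6 replicates 1, 2 and 5 and MRL/MpJ replicates 2 and 4 (log2 fold change 0.51 to 0.57, adjusted p = 8.83e-04 to 0.00149), under the RLE and housekeeping scalings, by DESeq2, with edgeR's own filter on low counts, in a fit of only the compared groups and in one of all 100 libraries. Of 16 genes that respond to glucocorticoids or in the acute phase 0 were higher and 4 lower (median -0.14). The list had 2 higher and 3 lower genes with 1 RUVg factor removed and 1 and 4 with 2 factors. Zbtb16, which glucocorticoids induce, stood at 31.3, 25.4, 22.7, 19.4 and 21.3 CPM in C57BL/6 and 38.3, 53.5, 51.7, 44.1 and 46.7 CPM in MRL/MpJ (log2 fold change -0.94, SE 0.15, adjusted p = 9.73e-06), a call lost with 1 RUVg factor removed (log2 fold change -0.58, adjusted p = 0.00389), and the list shares Pdk4 and Ucp3 with the fatty acid genes. Saa1 had 1 count over the C57BL/6 libraries and 0.107, 0.325, 0.212, 0.264 and 0.0819 CPM in MRL/MpJ, and no fold is given for so few counts. Of 19 immediate early genes 2 were higher and 1 lower (median 0.25), a share near the 14.8% of all genes called. These were Egr1 at 1.34 (log2, SE 0.47, adjusted p = 0.0271), Egr2 at 0.92 (log2, SE 0.33, adjusted p = 0.0288) and Nr4a1 at -0.93 (log2, SE 0.27, adjusted p = 0.00788). The call of Egr1 was lost without each of C57BL/6 replicates 2 and 5 and MRL/MpJ replicates 1, 3 and 5 (log2 fold change 1.23 to 1.31, adjusted p = 0.0519 to 0.0625) and that of Egr2 without each of C57BL/6 replicates 2 and 5 and MRL/MpJ replicates 2 and 4 (log2 fold change 0.80 to 0.92, adjusted p = 0.0511 to 0.0799). After RUVg none of Egr1, Egr2 and Nr4a1 was called (log2 fold changes 1.35 and 1.07, 0.94 and 0.82 and -0.49 and -0.64 with 1 and 2 factors), and the list had 1 higher and 1 lower gene with 1 factor and 1 higher with 2. Of 4 skin genes 1 was higher (Sfn, log2 fold change 1.60, adjusted p = 4.53e-06).

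No gene was called among 11 endothelial genes (median -0.011), 9 of Schwann cells and nerve (-0.31), 12 heat shock genes (-0.33), 16 cell cycle genes (-0.10) and the 25 housekeeping genes of the study (0.080). These counts are from edgeR's quasi-likelihood test, and DESeq2 called 0 of them as well, while 6, 2, 5, 3 and 8 of them had an unadjusted p below 0.05. With 1 RUVg factor removed 1 cell cycle gene was lower, and in a fit of all 100 libraries 1 Schwann cell gene was lower. Without MRL/MpJ replicate 4 there were 2 called Schwann cell genes, and 1 housekeeping gene was called without each of MRL/MpJ replicates 1 and 4 and C57BL/6 replicates 1, 3 and 4. The genes of sex gave 0 higher and 2 lower of 5. The Y-linked gene Ddx3y was detected in all 10 libraries, at 144, 129, 144, 121 and 133 CPM in C57BL/6 and 154, 168, 172, 160.2 and 148 CPM in MRL/MpJ. Xist, expressed from the inactive X chromosome, stood at 2.69, 1.20, 2.53, 1.84 and 2.04 CPM in C57BL/6 and 3.33, 3.69, 4.14, 3.08 and 3.44 CPM in MRL/MpJ. Y-linked Uty differed by -0.60 (log2, SE 0.082, adjusted p = 9.60e-07), a call lost without C57BL/6 replicate 4 (log2 fold change -0.55, adjusted p = 8.30e-06), and Xist by -0.76 (log2, SE 0.23, adjusted p = 0.0101). With 1 or 2 RUVg factors removed, Uty alone was called, and Xist was not (log2 fold changes -0.71 and -0.71).

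The study had put forward 21 candidate genes on libraries that include these 10, so their directions here are not independent evidence. Of 5 candidates higher in MRL/MpJ, 5 were lower in C57BL/6, and of 16 lower in MRL/MpJ, 16 were higher. B4galnt2, a glycosyltransferase gene, stood at 3.26, 4.23, 5.32, 4.99 and 3.31 CPM in C57BL/6 and 13.8, 14.5, 14.7, 15.04 and 16.4 CPM in MRL/MpJ (log2 fold change -1.76, SE 0.16, adjusted p = 4.88e-10). Vwa5a differed by -1.38 (log2, SE 0.084, adjusted p = 4.19e-14), Ccdc38 by -2.44 (log2, SE 0.20, adjusted p = 5.57e-11) and the aldehyde oxidase gene Aox4 by -2.36 (log2, SE 0.36, adjusted p = 6.22e-06). Capg, which caps actin filaments, stood at 70.7, 62.9, 66.8, 95.7 and 68.3 CPM in C57BL/6 and 9.67, 8.45, 9.77, 9.32 and 11.1 CPM in MRL/MpJ (log2 fold change 2.95, SE 0.12, adjusted p = 3.23e-18). Ezh1, a histone methyltransferase gene, stood at 55.7, 50.3, 58.1, 59.6 and 60.2 CPM in C57BL/6 and 21.2, 21.7, 24.004, 26.03 and 26.3 CPM in MRL/MpJ (log2 fold change 1.29, SE 0.073, adjusted p = 7.80e-15). The other higher candidates without their own mention so far had log2 fold changes of 4.03 (Serpina3b), 2.35 (Rab6b), 2.16 (Myoc), 1.25 (Fam171b), 1.37 (Ccdc109b), 2.05 (Thnsl2), 1.28 (Pccb), 1.01 (Acsf2) and 1.20 (Pycard). The peptide transporter gene Slc15a2 was the 1 candidate with overlap, at 6.74, 29.2, 34.4, 9.58 and 5.43 CPM in C57BL/6 and 5.16, 4.99, 5.42, 6.16 and 5.57 CPM in MRL/MpJ, where C57BL/6 replicates 2 and 3 were high and the other libraries lay near MRL/MpJ (log2 fold change 1.66, SE 0.44, adjusted p = 0.00368).

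The strain comparison was repeated in libraries that do not enter it. At 0-day 2751 genes (15.9%) were called, in contralateral joints at 1-week 1477 (8.53%) and at 2-weeks 1702 (9.83%), the last in another experimental batch. Of the 2563 genes called at 1-day, 1766 were called in the same direction at 0-day, which is 68.9% of the 1-day list and 64.2% of the 0-day list, and 2 in the opposite direction. At 1-week 1004 were shared, 39.2% and 67.98% of the lists, with 10 opposite. At 2-weeks 1096 were shared, 42.8% and 64.4%, with 8 opposite. At all 3 other times 747 genes were called the same way (29.1%), 435 of them higher and 312 lower in C57BL/6, and 575 (22.4%) were called at none of them. The 747 became 591 with 1 RUVg factor removed and 147, of which 88 were higher and 59 lower, with 2 factors. Slow muscle genes were among the lists that turned, with a median of -0.46 at 1-day and 0.85 at 1-week, when 5 were higher and 0 lower. At 1-week and 2-weeks, 1 and 5 small leucine-rich proteoglycans and 1 and 2 tendon and ligament genes were higher. So were 1 and 5 fibrous tissue collagens and 1 and 2 ADAMTS proteases, with 0 lower in these lists. The changes between these times were not tested.

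**Figure D5:**
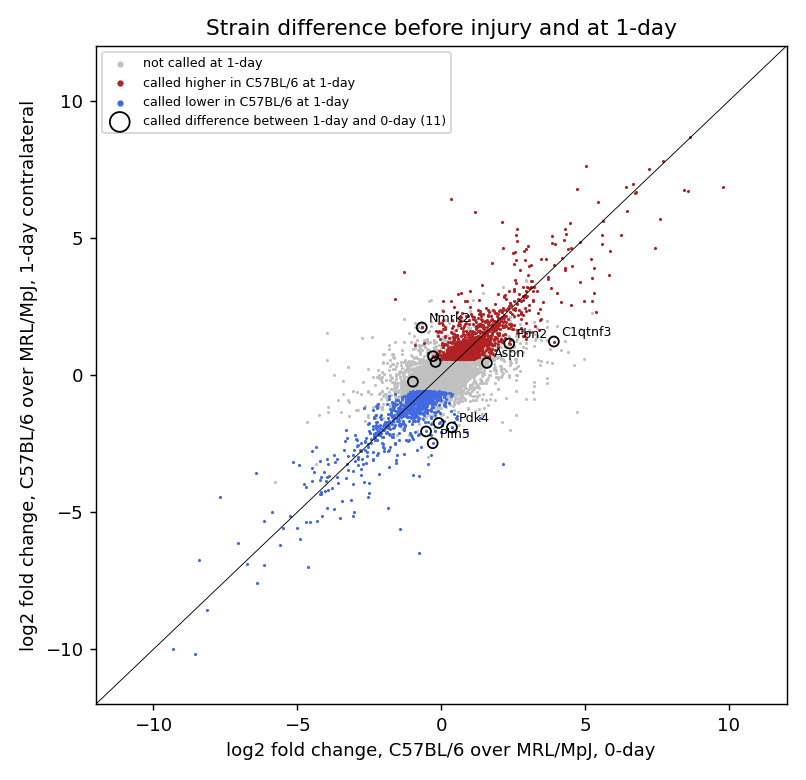
Each point is a gene, with the log2 fold change, C57BL/6 over MRL/MpJ, at 0-day on the horizontal axis and in the contralateral joint at 1-day on the vertical axis, and the line marks equal values. Red and blue mark genes called at 1-day, and circles mark the 11 genes whose difference between the times was called, of which Nmrk2 lies above the line and Pdk4, Plin5, C1qtnf3, Fbn2 and Aspn below it.

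Genes called between strains were spread over the genome with local clusters. In 239 windows of 10 Mb with at least 20 tested genes the median share called was 13.7%, from 0 to 42.6%. The highest share was on chromosome 6 from 130 to 140 Mb, with 23 of 54 genes, beside the longest run of neighbouring called genes, 10 Klra genes at chr6:129831154-130386874. These encode receptors of natural killer cells that differ in number and sequence between strains, with 8 higher and 2 lower in C57BL/6. The window of the antibody heavy chain locus, chromosome 12 from 110 to 120 Mb, held 61 called of 172 genes, 39 of them by over 4-fold. A run of 6 genes at chr1:173566280-173802755 holds Pyhin1 and Ifi204 of the Ifi200 cluster. A run of 9 genes of the gamma protocadherin cluster, which encode adhesion proteins built from shared exons, was higher throughout in C57BL/6. The genes of such clusters share sequence, and how reads were split among them was not tested.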

How the data were processed

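Messenger RNA of whole mouse knee joints was measured by RNA sequencing. Per the labels and the study's methods, the authors aligned reads to mm10 with TopHat2 2.0.11, counted them per gene with featureCounts, removed genes with low counts and deposited raw counts per gene, which no scaling had changed. Of the 17313 listed gene names 3 repeats were dropped, and 24 names that a spreadsheet had turned into dates were kept as features without a gene name. A minimum of 2 counts in at least 5 libraries removed 0 genes. The counts were scaled by TMM factors in edgeR 4.0.16 (R 4.3.3).

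Strains were compared with edgeR's quasi-likelihood test over all 30 libraries of 1-day, with Benjamini-Hochberg adjustment. Genes were called at an adjusted p below 0.05 and a fold above 1.5. The strain difference was also tested against that at 0-day and that in injured joints, and repeated at the 3 other times. SE is the log2 fold change divided by the square root of F. Ratios for 1 to 3 counts carry 95% intervals that cover counting error only, and 0 counts were set to a floor of 3 counts over the group. Groups came from the labels. The test was tried on simulated counts. Alternatives were other scalings, RUVg factors (computed from the published formula), DESeq2 1.42.0, a likelihood ratio test, other filters, other sets of libraries, a replicate block and leaving out each library.

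Members and gene lists were chosen with earlier results of these data known, and the lists of fatty acid oxidation and synthesis after values were seen. The genes named were the 10 called genes with the largest fold in each direction at a mean of at least 1 CPM with no overlap between strains, the smallest adjusted p in each direction, up to 4 called members of each list, 5 genes in each direction of each test of a difference and the study's candidates. Others are named as chosen after their values were seen. Positions, for 17221 genes of which 16662 matched by symbol, and promoters are from RefSeq (GRCm38.p6). Some genes that this rule names are not reported here.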

Additional observations from a re-analysis of the deposited data

Results flagged for a closer look

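The level of some genes and lists in 1 library stood apart from the other 4 of its strain by Dixon's test at the 95% level, which chance alone gives in about 1 in 20 groups. In C57BL/6 replicate 1 the highest levels were those of BE949265 at 1.01, Bglap at 702, Igfbp2 at 2.02, Myh4 at 37359.9, Myoc at 123, Pdk4 at 77.01 and Ucp3 at 33.8 CPM. Its sum over the osteoblast and osteocyte list was 3260.1 CPM, apart from the other 4 libraries. Its sum over the muscle regeneration and denervation list was 396 CPM, apart from the other 4 libraries. In C57BL/6 replicate 2 the highest levels were those of Gbp10 at 0.644, Ifi204 at 39.4, Isg15 at 91.1, Saa1 at 0.0920, Trim30d at 20.7 and Trim34a at 17.9 CPM. Its sum over the skin and hair list was 6.81 CPM, apart from the other 4 libraries. In C57BL/6 replicate 4 the highest levels were those of A2m at 7.06, Capg at 95.7, Csf1r at 232, Ifi44l at 0.0450 and Jchain at 65.7 CPM and the lowest level was that of Nr1d1 at 60.6 CPM. Its sum over the mast cell list was 143 CPM, apart from the other 4 libraries. In C57BL/6 replicate 5 the highest levels were those of Cd3e at 1.95, Cd59a at 89.4 and Ceacam2 at 0.425 CPM and the lowest level was that of Igkv8-27 at 1.53 CPM. In MRL/MpJ replicate 1 the highest level was that of Cfd at 90.8 CPM. In MRL/MpJ replicate 2 the highest levels were those of Myh1 at 6091, Myh2 at 2637, Myoz2 at 72.5, Nr4a1 at 100.5 and Plin5 at 16.4 CPM. Its sum over the slow muscle list was 3336 CPM, apart from the other 4 libraries. In MRL/MpJ replicate 3 the highest level was that of Fbxo32 at 339.6 CPM and the lowest level was that of Igfbp6 at 16.5 CPM. In MRL/MpJ replicate 4 the highest levels were those of Eif2ak2 at 43.2, Ifi204 at 13.2, Ighv4-1 at 0.0879, Pyhin1 at 17.1 and Rbm44 at 0.0879 CPM. In MRL/MpJ replicate 5 the highest levels were those of Gm5779 at 20.7, Igkv8-27 at 0.0819, Pdgfra at 79.8 and Scd1 at 331 CPM. The levels given for Saa1, Ifi44l, Ighv4-1, Rbm44 and, in MRL/MpJ, Igkv8-27 each rest on 1 count.

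The strain difference, C57BL/6 over MRL/MpJ, was called different between times or joints for the following genes by edgeR's test of the difference itself. From 0-day to the contralateral joint at 1-day the log2 fold change differed by 0.74 for Acsl3, -1.14 for Aspn, -2.70 for C1qtnf3, -1.53 for Fabp3, -1.22 for Fbn2, 0.67 for Gprc5c, 2.41 for Nmrk2, 0.97 for Nr1d1, -2.29 for Pdk4 and -2.20 for Plin5. From the contralateral to the injured joint at 1-day it differed by -0.68 for Acaca, -1.53 for Adamtsl2, 2.01 for Angptl1, 1.38 for Aspn, -4.37 for BE949265, 1.11 for Col14a1, 1.22 for Fam171b, -1.34 for Fasn, -0.67 for Gprc5c, -1.40 for Hal, 1.36 for Lrrc17, 0.85 for Phldb2, 1.23 for Postn, 1.38 for Sfrp2 and 0.82 for Thbs2. Aspn and Gprc5c stand in both lists, which rest in part on the same contralateral libraries. With each of the 20 libraries of the second test left out in turn, Gprc5c kept this call in 4, Fam171b in 7, Col14a1 in 9, Sfrp2 in 11, and Aspn and Thbs2 in 20 of 20.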

How the results depend on the processing

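The number of genes called between the strains lay between 2032 and 2669 under the other scalings, tests, filters and sets of libraries and between 2379 and 2612 with 1 library left out, against 2563. It was 5906 with no fold threshold and 1207 at 2-fold. The share called higher was 60.8%, and 55.2% in a fit of all 100 libraries. The 11 genes whose strain difference changed from 0-day became 19 with housekeeping scaling, 18 and 36 with 1 and 2 RUVg factors, 34 with DESeq2, 33 with the likelihood ratio test, 21 with only the compared groups and 2 to 20 with 1 library left out. The 55 genes that differed between joints became 24 with housekeeping scaling, 156 with 2 RUVg factors, 103 with DESeq2, 114 with the likelihood ratio test and 25 to 120 with 1 library left out. The 747 genes called the same way at the other times were 147 with 2 RUVg factors and 715 to 756 with 1 library left out. The causes were not tested. Among the lists, the guanylate-binding and immunity-related GTPases had 1 called gene with 1 RUVg factor and 2 with 2 factors, all lower, and the immediate early list had 1, lower, without C57BL/6 replicate 2 (from 1 to 4 called with 1 library left out). The log2 fold change of Ckm was 0.025 with 1 RUVg factor. Of 194 called genes followed, 154 kept call and direction under every alternative tried.

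Replicate numbers are shared between groups, but deviations of same-numbered libraries correlated at -0.14 to 0.16 between the strains, 0.077 to 0.18 between the joints of C57BL/6 and -0.25 to 0.31 between those of MRL/MpJ, so the numbers were not used as pairs, since not every pair exceeded 0.1. All 5 values of C57BL/6 joints were above 0, and the labels do not say whether joints of one number came from 1 mouse. With the replicate block 2574 genes were called between strains, 7 changed from 0-day, 51 differed between joints and 725 recurred at the other times. Depth limits the genes with few counts, such as Il6, Saa1 and Fgf23.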
